A study of Mus musculus with 23 samples.

Results

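The genotype by tissue interaction in neutrophils comprises genes whose difference between wild-type (WT) and Piezo1-cKO mice differed between lung neutrophils and peripheral blood (PB) neutrophils. Members were found by joining the lung and the PB expression tables of the Piezo1 experiment by gene, taking FPKM, read counts scaled by gene length and library size, as log2(FPKM + 1) in all 8 libraries, and testing (lung WT minus lung cKO) minus (PB WT minus PB cKO) for each gene with an FPKM of at least 1 in 2 or more libraries. Of 21878 genes listed, 7560 were tested and 3647 had a difference at an adjusted p below 0.05, of which 518 also had an absolute difference above 1. The Piezo1 experiment holds 8 of the 23 samples of the series.

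The 4 groups, with 2 libraries each, were neutrophils of WT and of Piezo1-cKO mice, sorted from lung and from PB as CD45+CD11b+Ly6G+ cells. Piezo1-cKO mice carry Vav1-iCre together with Piezo1 alleles that have loxP sites around several exons. Vav1-iCre is active in hematopoietic cells broadly, so that deletion is not limited to neutrophils or to either tissue, and the labels call the controls WT with no further genotype; for a calcium reporter cross, the study uses WT for Piezo1 fl/fl mice. The study kept mice at 7 to 12 weeks of age for its experiments, and no treatment is named for these 8 samples. By the study's methods, blood was drawn before the lungs were perfused, lungs were digested with collagenase IV and DNase I at 37°C, and red blood cells were lysed with ACK buffer, so the libraries of the 2 tissues also differ in how the cells were prepared. Polyadenylated RNA was sequenced as 150-base paired reads, and the labels name a SMARTER kit where the study's methods name a VAHTS kit. The labels do not say that the 2 libraries of a group came from separate mice, so p-values measure the spread between these libraries, which may be technical.

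PIEZO1 is a cation channel of the plasma membrane that opens under membrane stretch and lets calcium in. Neutrophils are short-lived granulocytes that leave the bone marrow, circulate in blood and linger in the narrow capillaries of the lung, where they have to deform to pass. Calcium entry is known to act on the actin cytoskeleton, on degranulation and on transcription factors such as NFAT, AP-1 and NF-kB, and immediate early genes, which need no new protein for their induction, are among the fastest transcripts to respond. A comparison of the genotype effect between the tissues asks whether loss of the channel goes with the same transcript changes in cells from a mechanically demanding vascular bed and in cells taken from flowing blood.

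Recovered reads on genes were 13183370 to 15034817 per library, except for 1 Piezo1-cKO PB library with 9621120. Where no read was found, as many as 3 may be missed by counting error alone. The biological coefficient of variation within a group was 2.09% to 2.57%, and 5.38% in Piezo1-cKO PB. All 15 neutrophil markers (among them Ly6g, Itgam, Csf3r, S100a8 and S100a9) were at 1 FPKM or more in every library. Piezo1 itself was covered by 8 and 8 reads with WT against 7 and 4 with Piezo1-cKO in lung, and by 5 and 5 against 3 and 10 reads in PB. Levels were thus at most 0.0758 FPKM and overlapped between genotypes in PB, and the gene was below the filter and was not tested; the floxed exons cannot be viewed apart from the rest in these tables. The labels' genotypes could therefore not be checked by the targeted gene at this depth.

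A positive difference means that the gene was higher in WT relative to Piezo1-cKO in lung than it was in PB, and a negative difference that it was lower in WT relative to Piezo1-cKO in lung than in PB. In limma-trend with Benjamini-Hochberg adjustment over all 7560 genes, 1402 genes had a positive and 2245 a negative difference (48.2% of genes tested in all, 18.5% positive and 29.7% negative). Above an absolute difference of 1 stood 518 genes (6.85%), 194 positive (2.57%) and 324 negative (4.29%). The median difference over all genes was -0.08, from a median genotype effect of -0.09 in lung and -0.02 in PB. After a rescaling of libraries by their median ratio, the comparison moved the median difference to 0.01 and turned the split of calls from 38.4% positive to 51.3% positive (1869 positive and 1773 negative). In edgeR with TMM on recovered reads, 1803 genes were positive and 2152 negative. The excess of negative calls was thus not kept under each alternative, and differences are best read against the median gene. Of the 518 genes, 516 were called with the same sign after rescaling and 495 by edgeR with TMM. In edgeR with TMM and in DESeq2 the same 5 of the 518 (9930104L06Rik, Fahd1, Fam212a, Mfsd4b3 and Zfp60, named after their values were seen) had the opposite sign, and neither tool called them.

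**Figure D1:**
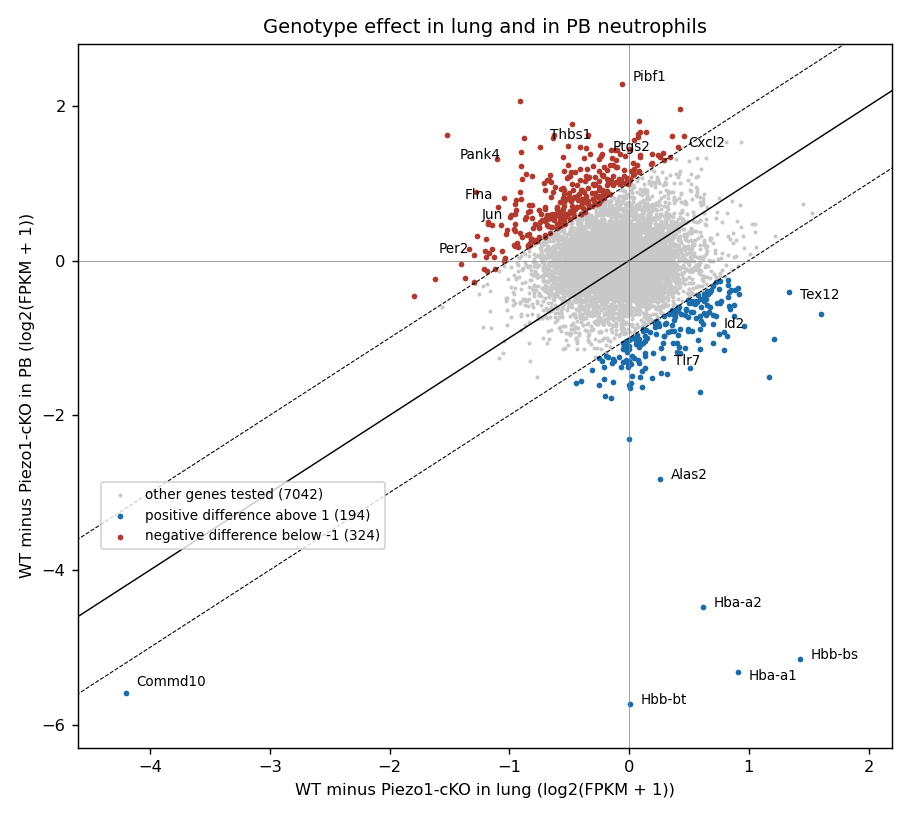
Genotype effect (WT minus Piezo1-cKO, log2(FPKM + 1)) in lung on the x axis and in PB on the y axis, 1 point per gene tested, with the 194 positive and 324 negative genes past an absolute difference of 1 in color. The solid line marks equal effects and the dashed lines a difference of 1; globin genes lie far below the line and Commd10 is low in WT in both tissues.

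Of the 518 genes, 445 had opposite signs in the 2 tissues and 73 the same sign, with signs counted at any size of effect. Selection above an absolute difference of 1 favors opposite signs. Effects of the same sign that are each below 1 in size cannot reach it. No share of opposite signs over all genes tested is set beside these counts. The PB effect was the larger in size at 365, with a median absolute effect of 0.85 in PB against 0.46 in lung. Sorted by the effects themselves, 192 genes passed an adjusted p of 0.05 and an effect of 1 in PB only, 31 in lung only, 6 in both and 289 in neither, where modest opposite effects added up. Over all genes tested, 63 passed in lung (0.833%) and 269 in PB (3.56%). The size of this gap moved with the scale, with 82 in lung and 173 in PB after rescaling, and 660 and 850 in edgeR with TMM. Genes expressed at a modest level prevailed: the highest group mean had a median of 3.77 FPKM among the 518 and 8.98 FPKM among all genes tested, and 40 of the 3229 genes with at least 5 FPKM in all 4 groups (1.24%) were among the 518.

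Gene length moved with the difference. Across the 7560 genes, which are not independent and share libraries, Spearman's rho between gene length and the difference was -0.18, with -0.19 for the lung effect and 0.08 for the PB effect. Split into 10 bins of 756 genes by length, the median difference was 0.03 in the shortest bin (median length 850 bases) and -0.21 in the ninth (median 5996 bases). The share of genes called positive went from 26.7% in the second bin to 10.98% in the ninth, and the share called negative from 16.8% in the first to 41.7% in the eighth. The part of gene length in the results was not tested beyond 1 alternative, chosen after seeing the data, that took the trend with length out of each library before the fit. It called 1843 genes positive and 1738 negative, and all 518 genes above 1 were called with the same sign.

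**Figure D2:**
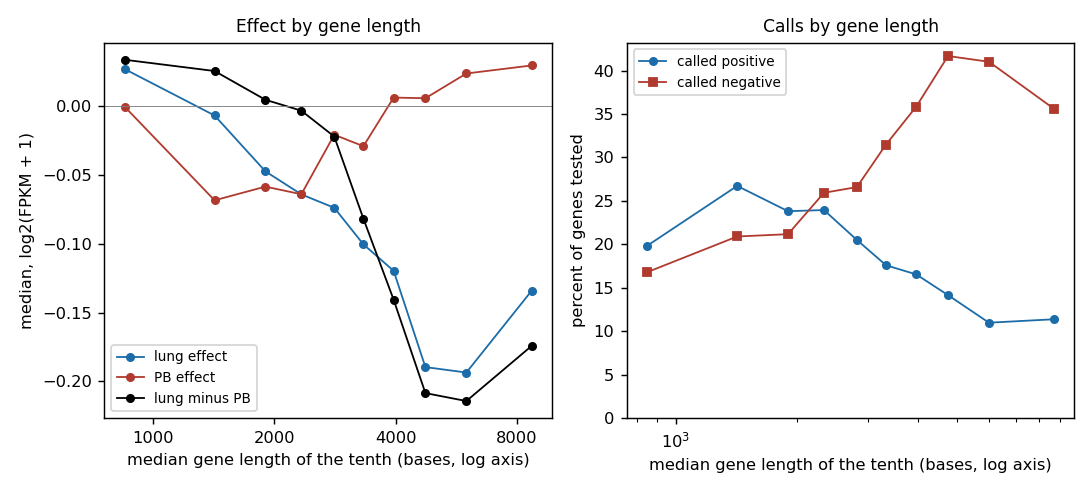
Median genotype effect in lung and in PB and their difference (left, log2(FPKM + 1)) and percent of genes called (right) in 10 bins of 756 genes, against the median gene length of each bin in bases on a log axis. The lung effect falls with length while the PB effect does not, and negative calls outnumber positive ones from the fourth bin on.

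The largest positive differences were at erythroid genes, which were high in Piezo1-cKO PB alone. Hbb-bs, the adult beta globin (chromosome 7 of GRCm38, 103826523 to 103827928), had 2.52 and 2.29 FPKM with WT and 0.319 and 0.219 with Piezo1-cKO in lung, and 9.73 and 9.28 with WT against 338 and 408 with Piezo1-cKO in PB. The WT minus Piezo1-cKO effect was 1.42 in lung and -5.15 in PB, a difference of 6.57 (SE 0.13, limma adjusted p = 5.63e-08). Both Piezo1-cKO PB libraries stood far above the other 6. The alpha globins Hba-a1 and Hba-a2 and the beta globin Hbb-bt followed with differences of 6.24, 5.09 and 5.74. Alas2, which makes the first step of heme synthesis in red cells, had no reads in WT PB and 6.197 and 5.96 FPKM in Piezo1-cKO PB, so that its difference of 3.08 depends on the pseudocount and is no bound. Of 25 erythroid markers, 24 were listed and 11 tested, of which 7 had a positive and 3 a negative difference. Besides the 5 genes above, Bpgm, which makes a regulator of oxygen release in red cells and was named after its values were seen, had a difference of 1.59. The negative ones, likewise named, were Fech, Slc25a37 and Ube2l6, with -0.30, -0.82 and -0.42. Summed over the 24 markers, FPKM were 1123 to 1245 in Piezo1-cKO PB, 129 to 130.2 in WT PB, 47.2 to 47.4 in WT lung and 51.1 to 52.4 in Piezo1-cKO lung.

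Globin reads made up 0.0599% and 0.0673% of reads on genes in Piezo1-cKO PB and at most 0.00158% in the other 6 libraries. In lung the direction was the other way round at a much lower level, with 42 and 45 globin reads in WT and 3 and 14 in Piezo1-cKO. Summed markers of other cell types were also compared. Platelet markers (17 listed, 5 tested) summed to 4.71 to 5.19 FPKM in Piezo1-cKO PB, 8.22 to 8.90 in WT PB and 13.6 to 14.9 in lung, and 4 of the 5 (Clec1b, F5, Itgb3 and Pf4, named after their values were seen) had a negative difference. Dendritic cell and MHC class II markers summed to 297 to 309 FPKM in WT lung and 284 to 290.0 in Piezo1-cKO lung against 28.3 to 31.3 in PB, and monocyte and macrophage markers to 614 to 651 in lung and 924 to 973 in PB. The monocyte and macrophage list (24 found, 8 tested) shares Chil3 with the granule and immature granulocyte lists. Its sum is therefore not a measure of monocytes alone. Of 8 monocyte and macrophage markers tested, 1 had a positive and 3 a negative difference. The tested B cell marker, Cd37, had a difference of 0.05 (limma adjusted p = 0.512) and was called positive in edgeR with TMM, and the tested T cell markers Cd3d and Cd3g had 0.28 and 0.42 (limma adjusted p = 0.0658 and 0.0923), of which 1 was called positive after rescaling. In bulk samples, fewer cells of a type and less RNA per cell cannot be told apart, and the part of other cells' RNA in the other differences was not tested.

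Outside the erythroid genes, the largest positive differences were at genes of low level. The choice of these genes, as of the erythroid ones, favors a high level in WT lung or in Piezo1-cKO PB. Such a level makes the difference positive and can alone carry a gene past the required group mean of 5 FPKM. Krt7, a keratin, had 3.34 and 3.40 FPKM with WT and 1.499 and 1.55 with Piezo1-cKO in lung, and 2.15 and 3.11 with WT against 7.73 and 6.32 with Piezo1-cKO in PB. It was higher in WT in lung and lower in WT in PB, with no overlap between genotypes in either tissue, and its difference was 1.94 (SE 0.19, limma adjusted p = 1.46e-04). Lactb2 is a mitochondrial endoribonuclease, and Tex12 a protein of the meiotic synaptonemal complex. Lactb2 had 6.70 and 8.68 FPKM with WT and 4.04 and 3.74 with Piezo1-cKO in lung, and 0.115 and 0 with WT against 0.785 and 1.42 with Piezo1-cKO in PB, and a difference of 1.80. Tex12 had 4.90 and 5.50 FPKM with WT and 1.32 and 1.59 with Piezo1-cKO in lung, and 0.246 and 0.432 with WT against 0.842 and 0.687 with Piezo1-cKO in PB, and a difference of 1.74, the larger part of it from lung. Cyp4f16, a cytochrome P450, was highest in Piezo1-cKO PB, with 6.63 and 6.02 FPKM against 1.12 to 2.23 in the other libraries, and had a difference of 1.74. The predicted gene Gm6377 completed the 10 largest with 1.72. Tlr7, the endosomal receptor for single-stranded RNA, had the largest difference among the pattern receptors named by rule, with 1.64 and 1.59 FPKM with WT and 0.989 and 1.30 with Piezo1-cKO in lung, and 2.76 and 2.74 with WT against 8.87 and 7.18 with Piezo1-cKO in PB. Both Piezo1-cKO PB libraries were above all others, the effect was 0.29 in lung and -1.26 in PB, and the difference was 1.55 (SE 0.16, limma adjusted p = 1.78e-04).

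The largest negative differences were at genes that were high in WT PB and low in Piezo1-cKO PB. Pibf1, a centrosomal protein (chromosome 14 of GRCm38, 99099424 to 99254899), had 3.700 and 2.95 FPKM with WT and 3.34 and 3.63 with Piezo1-cKO in lung, and 8.84 and 8.74 with WT against 1.09 and 0.952 with Piezo1-cKO in PB. The lung libraries of both genotypes overlapped while those of PB were far apart, with effects of -0.06 in lung and 2.28 in PB and a difference of -2.33 (SE 0.14, limma adjusted p = 2.10e-05). In Pank4, which belongs to the pantothenate kinase family, both tissues contributed, with 1.32 and 1.01 FPKM with WT and 3.23 and 2.85 with Piezo1-cKO in lung, and 7.95 and 7.58 with WT against 2.83 and 2.71 with Piezo1-cKO in PB. Its effects were -0.90 in lung and 1.22 in PB, and the difference was -2.12 (SE 0.14, limma adjusted p = 2.82e-05). H2-M3, a nonclassical MHC class I molecule that presents N-formylated peptides of bacteria, had 4.15 and 2.99 FPKM with WT and 5.20 and 5.71 with Piezo1-cKO in lung, and 9.95 and 9.63 with WT against 2.77 and 2.97 with Piezo1-cKO in PB. It was lower in WT in lung and higher in WT in PB without overlap, and its difference was -1.99 (SE 0.17, limma adjusted p = 8.75e-05). The other 7 of the 10 were the E3 ubiquitin ligase Arel1 (-1.90), the Fanconi anemia protein Fance (-1.88), the surface antigen Ly6a (-1.76), the zinc finger gene Zfp961 (-1.74), the adaptor protein subunit Ap5z1 (-1.73), the Golgi protein Gcc1 (-1.70) and Rps19bp1 (-1.70). In each of the 10, WT PB held the highest group mean. The choice of these genes favors such a pattern. A high WT PB level makes the difference negative and can alone carry a gene past the required group mean of 5 FPKM.

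Among genes with at least 5 FPKM in all 4 groups, negative differences were led by a cytoskeletal and a coat protein. Flna encodes filamin A, which cross-links actin filaments and ties them to integrins (chromosome X of GRCm38, 74223461 to 74249854). It had 33.7 and 33.2 FPKM with WT and 65.6 and 65.5 with Piezo1-cKO in lung, and 48.9 and 50.3 with WT against 29.3 and 29.7 with Piezo1-cKO in PB. The genotypes did not overlap in either tissue, with effects of -0.95 in lung and 0.73 in PB and a difference of -1.68 (SE 0.06, limma adjusted p = 1.76e-06). The clathrin heavy chain Cltc, the coat protein of endocytic vesicles, followed the same course, with 9.20 and 9.23 FPKM with WT and 15.9 and 15.4 with Piezo1-cKO in lung, and 11.05 and 11.2 with WT against 5.20 and 5.67 with Piezo1-cKO in PB. Its difference was -1.62 (SE 0.09, limma adjusted p = 1.59e-05). Supt5, a subunit of the DSIF transcription elongation factor, and Sdr39u1, a short-chain dehydrogenase, had differences of -1.55 and -1.53 with the larger effect in lung. Flna, at a length of 8569 bases, and Cltc, at 6461 bases, lie in the bins of long genes, where negative calls outnumbered positive ones, and with the length trend removed their differences were -1.48 and -1.40.

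On the positive side, Id2 had the largest difference among these well-expressed genes. Id2 is an inhibitor of basic helix-loop-helix factors (chromosome 12 of GRCm38, 25093799 to 25096092). It had 191 and 191 FPKM with WT and 116 and 119 with Piezo1-cKO in lung, and 59.5 and 64.8 with WT against 113 and 108 with Piezo1-cKO in PB. It was higher in WT in lung and lower in WT in PB, with effects of 0.70 in lung and -0.82 in PB and a difference of 1.52 (SE 0.07, limma adjusted p = 6.81e-06). Tmco6 differed in PB only, with 25.4 and 24.5 FPKM with WT and 24.8 and 25.1 with Piezo1-cKO in lung, and 5.61 and 6.88 with WT against 16.4 and 17.4 with Piezo1-cKO in PB, and a difference of 1.31. The selenoprotein gene Vimp, which acts in the removal of misfolded proteins from the endoplasmic reticulum, the prefoldin subunit Pfdn2 and 3110043O21Rik, the mouse counterpart of C9orf72, had differences of 1.28, 1.28 and 1.27, and each was higher in WT in lung and lower in WT in PB.

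**Figure D3:**
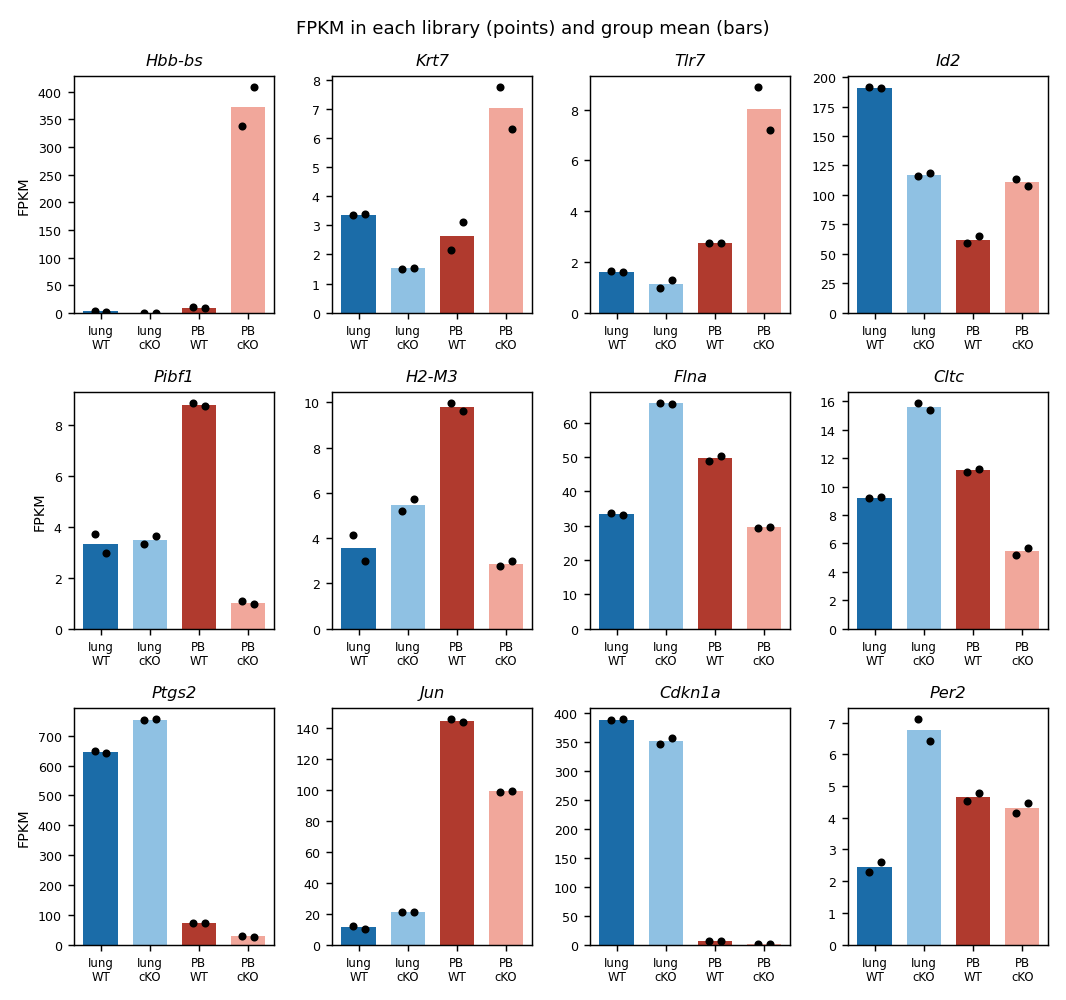
FPKM (linear axes from 0) of 12 genes in lung and PB neutrophils of WT and Piezo1-cKO mice, with 1 point per library and bars at the mean of 2 libraries. Flna and Cltc rise from WT to Piezo1-cKO in lung and fall in PB, Id2 does the reverse, and Hbb-bs is high in Piezo1-cKO PB alone.

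Effects that passed an adjusted p of 0.05 and 0.5 in both tissues with opposite signs were found at 141 genes (1.87%), 46 with a positive and 95 with a negative difference. The largest positive ones were the globins Hbb-bs, Hba-a1 and Hba-a2 and Krt7, and the largest negative ones Pank4, H2-M3, Arel1 and Ly6a, all described above. The count was 239 in DESeq2, 347 and 349 in edgeR with TMM and RLE, 304 with a pseudocount of 0.1 and 50 with the filter in all libraries. Among the 518 genes, Commd10 alone passed an effect of 1 in both tissues with the same sign. Commd10, a COMM domain protein involved in endosomal sorting, had 1.30 and 1.45 FPKM with WT and 41.2 and 44.4 with Piezo1-cKO in lung, and 0.601 and 0.165 with WT against 65.7 and 64.01 with Piezo1-cKO in PB. It was lower in WT in both tissues, with effects of -4.21 in lung and -5.59 in PB, and the difference of 1.39 (SE 0.18, limma adjusted p = 5.55e-04) reflects the larger effect in PB. Outside the 518, Bbs9 and Fkbp5, named after their values were seen, were also lower in WT by more than 1 in both tissues, with differences of 0.00 (SE 0.14, limma adjusted p = 0.987) and 0.17 (SE 0.08, limma adjusted p = 0.129).

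Among the function lists, immediate early genes had the highest share of negative calls in limma. For this list, of 34 members tested, 0 had a positive and 20 a negative difference, with a median of -0.21, against 18.5% positive and 29.7% negative over all genes. These shares over all genes are the reference for every list below. In lung 16 of the 34 were lower and 4 higher in WT at an adjusted p below 0.05, and in PB 3 were lower and 18 higher. The negative calls numbered 14 after rescaling and 17 with the length trend removed, and 12 to 21 of these 34 members over all alternatives. Positive calls, of which limma made none, numbered 1 after rescaling and 2 in edgeR with TMM and in DESeq2, and 0 to 5 over all alternatives, and the median moved to -0.10 after rescaling. Jun, a subunit of AP-1 (chromosome 4 of GRCm38, 95049036 to 95052222), had 12.03 and 10.1 FPKM with WT and 21.2 and 20.8 with Piezo1-cKO in lung, and 146 and 144 with WT against 98.7 and 99.5 with Piezo1-cKO in PB. No libraries of the 2 genotypes overlapped in either tissue, and the difference was -1.41 (SE 0.10, limma adjusted p = 3.55e-05). Csrnp1, an AXIN1-inducible nuclear protein, had 141 and 139 FPKM with WT and 194 and 193 with Piezo1-cKO in lung, and 41.02 and 39.3 with WT against 26.1 and 26.9 with Piezo1-cKO in PB, and a difference of -1.04 (SE 0.05, limma adjusted p = 1.39e-05). Fosb, a partner of Jun, and Nr4a1, an orphan nuclear receptor induced by calcium and antigen receptor signals, showed the same order, with differences of -0.99 (SE 0.07, limma adjusted p = 5.76e-05) and -0.94 (SE 0.04, limma adjusted p = 7.13e-06). Nr4a1 had 650.4 and 651 FPKM with WT and 755 and 745 with Piezo1-cKO in lung, and 41.7 and 40.9 with WT against 24.6 and 24.3 with Piezo1-cKO in PB. Btg2, an antiproliferative gene, stood at -0.83. Fos, another AP-1 subunit, was not called, with a difference of 0.08 and 3002 to 3542 FPKM in lung and 4673 to 5371 FPKM in PB. Fos was named after its values were seen.

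**Figure D4:**
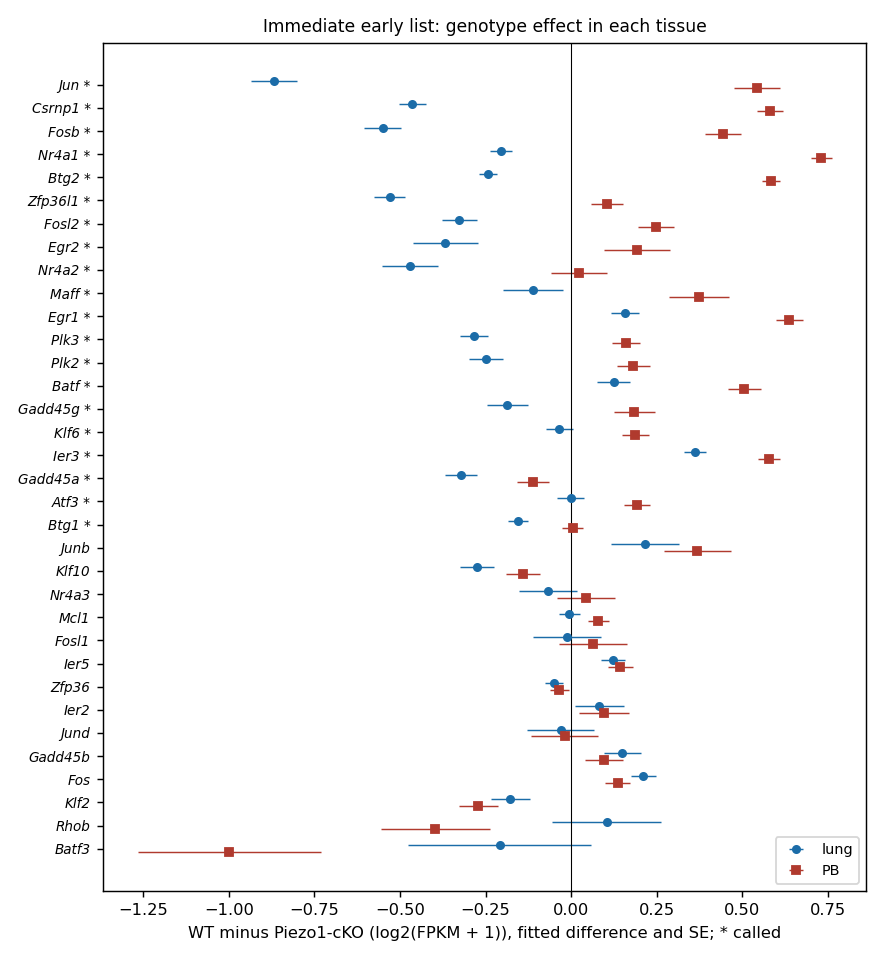
Fitted genotype effect (WT minus Piezo1-cKO, log2(FPKM + 1)) with its SE in lung (circles) and PB (squares) for the 34 immediate early genes tested, ordered by the difference, with 20 called genes starred. All 20 starred genes were called negative, so by definition their lung effect lies to the left of their PB effect.

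Promoters of 4 genes with negative differences are shown for the motifs that a search found in them, from RefSeq on GRCm38.p6, running from 250 bases before to 50 bases after the annotated start. They were chosen after their values were seen, as genes of immediate early, prostaglandin, NF-kB and clock function. The search covered the cyclic AMP response element TGACGTCA, the AP-1 site TGANTCA and the E-box CACGTG, which read the same on both strands, and the CArG box by its name; none of the first 3 contains another. Capitals mark the matches. Btg2 (chr1:134079106-134079405, minus strand) holds a cyclic AMP response element, Ptgs2 (chr1:150099781-150100080, plus strand) an E-box, Tnfaip3 (chr10:19015361-19015660, minus strand, 1 of 2 annotated starts) an AP-1 site and an E-box, and the clock gene Ciart (chr3:95882179-95882478, minus strand) 3 E-boxes.
Btg2: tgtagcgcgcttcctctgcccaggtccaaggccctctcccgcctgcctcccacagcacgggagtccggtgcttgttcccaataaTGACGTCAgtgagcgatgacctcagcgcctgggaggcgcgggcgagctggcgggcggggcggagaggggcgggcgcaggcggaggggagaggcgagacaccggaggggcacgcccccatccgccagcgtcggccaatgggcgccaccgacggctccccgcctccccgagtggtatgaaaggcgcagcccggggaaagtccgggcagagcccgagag
Ptgs2: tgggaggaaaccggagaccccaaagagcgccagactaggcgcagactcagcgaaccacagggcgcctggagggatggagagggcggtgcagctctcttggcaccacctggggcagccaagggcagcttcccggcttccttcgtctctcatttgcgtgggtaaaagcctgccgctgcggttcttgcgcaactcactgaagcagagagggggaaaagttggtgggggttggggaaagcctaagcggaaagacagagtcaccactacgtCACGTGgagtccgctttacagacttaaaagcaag
Tnfaip3: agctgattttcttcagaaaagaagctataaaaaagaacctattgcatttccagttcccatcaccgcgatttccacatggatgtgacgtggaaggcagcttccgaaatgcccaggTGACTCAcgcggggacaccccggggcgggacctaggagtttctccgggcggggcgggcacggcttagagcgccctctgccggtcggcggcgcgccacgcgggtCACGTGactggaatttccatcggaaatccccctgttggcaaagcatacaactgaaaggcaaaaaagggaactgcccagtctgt
Ciart: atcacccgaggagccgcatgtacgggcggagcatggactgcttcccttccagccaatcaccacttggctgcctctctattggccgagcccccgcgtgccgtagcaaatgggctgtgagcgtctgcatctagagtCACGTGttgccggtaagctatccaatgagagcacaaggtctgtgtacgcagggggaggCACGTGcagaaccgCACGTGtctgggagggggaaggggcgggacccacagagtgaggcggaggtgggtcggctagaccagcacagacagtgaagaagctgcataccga

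Over the 7813 promoters of genes tested (6164 genes matched), the cyclic AMP response element was in 3.38%, the AP-1 site in 5.03%, the E-box in 10.4% and the CArG box in 1.28%. Promoters of genes with a negative difference held them in 3.23%, 4.91%, 10.5% and 1.30%, and those of genes with a positive difference in 3.69%, 5.67%, 10.8% and 1.42%. The shares thus lay close to those of all genes tested in both directions. Of 39 promoters of immediate early genes, 3 (7.69%) held a cyclic AMP response element and 2 (5.13%) an AP-1 site. An E-box was in 6 (15.4%) and a CArG box in 5 (12.8%). The AP-1 share lay near that of genes tested and the others above it, in few promoters and with no test. A match is a description of the sequence, and no binding was measured.

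Genes that respond to NF-kB and feed back on it followed in part. For this list, of 26 members tested, 4 had a positive and 11 a negative difference, with a median of -0.11. These were 15.4% and 42.3% of members, against 18.5% and 29.7% over all genes. Tnfaip3, which encodes the ubiquitin-editing enzyme A20 that shuts NF-kB signaling off, had 385 and 384 FPKM with WT and 462 and 450.3 with Piezo1-cKO in lung, and 15.1 and 13.99 with WT against 8.99 and 8.33 with Piezo1-cKO in PB. It was lower in WT in lung and higher in WT in PB, and its difference was -0.93 (SE 0.07, limma adjusted p = 5.73e-05). The precursor Nfkb2 and the nuclear inhibitor Nfkbid had -0.76 and -0.72, whereas the antiapoptotic Bcl2a1b, a member of a family of near-identical copies whose reads may be split uncertainly, had 0.88. After rescaling, the median of the list was 0.00 and 6 members were positive and 9 negative.

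Chemokines and cytokines had equal numbers of calls in both directions in limma. For this list, of 32 members tested, 12 had a positive and 12 a negative difference, with a median of 0.07. That was 37.5% in each direction, against 18.5% positive and 29.7% negative over all genes. After rescaling, 15 were positive and 11 negative, and in edgeR with TMM 10 and 12. Cxcl2, a ligand of CXCR2 that draws neutrophils (chromosome 5 of GRCm38, 90903899 to 90905938), had 13892 and 13832 FPKM with WT and 10278 and 10668 with Piezo1-cKO in lung, and 925 and 944 with WT against 335 and 338 with Piezo1-cKO in PB. It was higher in WT in both tissues, by more in PB than in lung, with effects of 0.40 in lung and 1.47 in PB and a difference of -1.07 (SE 0.03, limma adjusted p = 1.46e-06). Tnf had 102 and 107 FPKM with WT and 150.4 and 154 with Piezo1-cKO in lung, and 13.5 and 16.1 with WT against 11.8 and 10.9 with Piezo1-cKO in PB, lower in WT in lung and higher in WT in PB, with a difference of -0.89 (SE 0.11, limma adjusted p = 3.72e-04). The costimulatory ligand Tnfsf9 and the interleukin subunit Il12a had differences of -1.52 and -0.87; Il12a had no reads in Piezo1-cKO PB and its value depends on the pseudocount. Il1b was higher in WT in both tissues, with 8619 to 9776 FPKM in lung and 2969 to 3934 FPKM in PB, and a difference of -0.22 (SE 0.03, limma adjusted p = 3.76e-04). Ccl3, an inflammatory chemokine, was higher in WT in lung (484 and 497 FPKM against 363 and 385) and not in PB, where the genotypes overlapped, with a difference of 0.43 (SE 0.10, limma adjusted p = 0.00778).

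Cytokine receptors had more negative than positive calls (51.9% and 14.8% of members), as had all genes tested (29.7% and 18.5%). Chemoattractant receptors had nearly equal numbers. For cytokine receptors, of 27 members tested, 4 had a positive and 14 a negative difference, with a median of -0.22, and the median length of these members was 4186 bases against 3064 bases for all genes tested. With the length trend removed, 7 were positive and 9 negative. Il10ra, a subunit of the receptor for interleukin 10, had 138 and 134 FPKM with WT and 168 and 168 with Piezo1-cKO in lung, and 32.5 and 28.8 with WT against 15.1 and 14.8 with Piezo1-cKO in PB, and a difference of -1.29 (SE 0.08, limma adjusted p = 2.10e-05). Il17ra and Il1rap, subunits of the receptors for interleukins 17 and 1, had -0.70 and -0.62, and the decoy receptor Tnfrsf23 0.61. For chemoattractant receptors, of 18 members tested, 5 had a positive and 6 a negative difference, with a median of 0.03. Ccrl2, a chemerin-binding receptor of the chemokine receptor family, had 1695 and 1677 FPKM with WT and 1473 and 1473 with Piezo1-cKO in lung, and 92.1 and 87.5 with WT against 34.8 and 32.9 with Piezo1-cKO in PB. It was higher in WT in both tissues, and by more in PB, with a difference of -1.19 (SE 0.05, limma adjusted p = 6.81e-06). C5ar2, a receptor for C5a, was lower in WT in lung and overlapped between genotypes in PB, with a difference of -1.08 (SE 0.11, limma adjusted p = 1.68e-04). Hcar2 and Ptafr, the receptor for platelet-activating factor, had -0.59 and -0.57. For transducers of cytokine signals and their feedback inhibitors, of 21 members tested, 7 had a positive and 11 a negative difference, with a median of -0.28. The transcription factor Stat5a had -1.28, the adaptor Sh2b3 -0.94, the kinase Pim1 -0.89 and Socs4 -0.86. Positive members, named after their values were seen, were Pim2 with 1.59, the feedback inhibitor Cish with 1.27 and Stat4 with 0.85, among others; Cish had no reads in WT PB, and its value depends on the pseudocount.

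Among the angiogenic factors, of 21 members tested, 5 had a positive and 8 a negative difference, with a median of -0.10. These were 23.8% and 38.1% of members, against 18.5% and 29.7% over all genes. Ptgs2 encodes cyclooxygenase 2, which makes the precursor of prostaglandins (chromosome 1 of GRCm38, 150100031 to 150108234). It had 648 and 642 FPKM with WT and 753 and 755 with Piezo1-cKO in lung, and 71.1 and 72.7 with WT against 29.4 and 25.1 with Piezo1-cKO in PB. It was lower in WT in lung and higher in WT in PB, with effects of -0.22 in lung and 1.37 in PB and a difference of -1.60 (SE 0.09, limma adjusted p = 1.39e-05). Thbs1, the antiangiogenic matrix protein thrombospondin 1, had 781 and 775 FPKM with WT and 875 and 850.2 with Piezo1-cKO in lung, and 5.93 and 5.51 with WT against 1.56 and 1.44 with Piezo1-cKO in PB, and a difference of -1.57 (SE 0.07, limma adjusted p = 6.81e-06). In both genes the lung level was far above the PB level in either genotype. Vegfa, the main endothelial growth factor, had 92.3 and 91.02 FPKM with WT and 46.4 and 48.9 with Piezo1-cKO in lung, and 4.09 and 4.93 with WT against 2.24 and 2.42 with Piezo1-cKO in PB. It was higher in WT in both tissues without overlap, with effects of 0.93 in lung and 0.72 in PB, and the difference of 0.21 (SE 0.11, limma adjusted p = 0.151) did not pass the test. Cxcl1 and Cd274 did not pass either, with 0.06 (SE 0.09, limma adjusted p = 0.628) and 0.11 (SE 0.06, limma adjusted p = 0.175), and Il6 was listed at 0 in 7 of 8 libraries and not tested. For Cxcl1, with few reads in WT PB and none in Piezo1-cKO PB, edgeR gave a difference of -4.50 (adjusted p = 0.00639). For eicosanoid synthesis, of 15 members tested, 3 had a positive and 4 a negative difference, with a median of 0.09. Besides Ptgs2, the phospholipase Pla2g4a had -0.70, and Lta4h and Alox5ap, which act in leukotriene synthesis, 0.24 and 0.22.

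In calcium entry and mechanosensing, of 34 members tested, 4 had a positive and 14 a negative difference, with a median of -0.16. These were 11.8% and 41.2% of members, against 18.5% and 29.7% over all genes. The median length of these members was 4373 bases, and with the length trend removed 7 were positive and 10 negative. Mcu, the pore of the mitochondrial calcium uniporter, had 3.24 and 2.89 FPKM with WT and 5.97 and 6.52 with Piezo1-cKO in lung, and 6.86 and 6.41 with WT against 5.12 and 4.97 with Piezo1-cKO in PB, and a difference of -1.17 (SE 0.12, limma adjusted p = 1.64e-04) that came mostly from lung. Stim2, a calcium sensor of the endoplasmic reticulum that gates store-operated entry, had 8.53 and 8.64 FPKM with WT and 8.36 and 7.72 with Piezo1-cKO in lung, and 6.46 and 6.11 with WT against 2.47 and 2.08 with Piezo1-cKO in PB, and a difference of -1.07 (SE 0.12, limma adjusted p = 2.43e-04) that came from PB. Trpm2, an oxidant-gated cation channel, and Atp2a3, a calcium pump of the endoplasmic reticulum, were lower in WT in lung and higher in WT in PB, with -0.93 and -0.77. These 4 genes all had negative differences although the tissue that carried them differed.

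The actin cytoskeleton list had shares near those of all genes (18.5% positive and 29.7% negative). For this list, of 56 members tested, 10 had a positive and 17 a negative difference, with a median of 0.01, and the split turned to 17 positive and 9 negative after rescaling. After Flna, the guanine exchange factor Dock2, which activates Rac in migrating leukocytes, had 24.4 and 24.6 FPKM with WT and 29.7 and 28.4 with Piezo1-cKO in lung, and 33.7 and 33.5 with WT against 23.1 and 20.7 with Piezo1-cKO in PB, and a difference of -0.83 (SE 0.08, limma adjusted p = 1.74e-04). The nonmuscle myosin heavy chain Myh9 and the WASP partner Wipf1 had -0.77 and -0.65. For adhesion and migration, of 34 members tested, 6 had a positive (17.6%) and 14 a negative difference (41.2%), with a median of -0.04. Talin (Tln1), which activates integrins, had 9.90 and 9.21 FPKM with WT and 18.99 and 19.4 with Piezo1-cKO in lung, and 15.7 and 16.4 with WT against 16.4 and 16.3 with Piezo1-cKO in PB, an effect in lung alone with a difference of -0.91 (SE 0.08, limma adjusted p = 1.21e-04). Sirpb1b, a signal-regulatory protein that was higher in WT in both tissues, had 165 and 171 FPKM with WT and 54.8 and 60.5 with Piezo1-cKO in lung, and 237 and 219.8 with WT against 152 and 145 with Piezo1-cKO in PB, and a difference of 0.91 (SE 0.08, limma adjusted p = 1.02e-04); its family holds near-identical copies. The integrin chains Itgb7 and Itgb2l had -0.80 and 0.68. For regulators of G protein signaling, of 18 members tested, 3 had a positive and 8 a negative difference, with a median of -0.09. Rgs1, which damps chemokine receptor signals, had 91.1 and 89.5 FPKM with WT and 38.3 and 38.4 with Piezo1-cKO in lung, and 6.39 and 7.61 with WT against 5.39 and 5.36 with Piezo1-cKO in PB, a rise in WT that was larger in lung, with a difference of 0.89 (SE 0.10, limma adjusted p = 2.85e-04). Gnb2, Grk6 and Rgs3 had -0.66, -0.56 and -0.47. Rgs10, named after its values were seen, had the largest difference of that list, with 1.76.

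Clock genes were few. For the circadian clock, of 11 members tested, 2 had a positive and 4 a negative difference, with a median of -0.06. Per2, a repressor of the clock, had 2.304 and 2.59 FPKM with WT and 7.10 and 6.43 with Piezo1-cKO in lung, and 4.53 and 4.78 with WT against 4.15 and 4.45 with Piezo1-cKO in PB. It was lower in WT in lung, and its PB libraries lay closer together, with effects of -1.17 in lung and 0.09 in PB and a difference of -1.26 (SE 0.12, limma adjusted p = 1.40e-04). Ciart, a clock repressor named after its values were seen, had 2.21 and 2.09 FPKM with WT and 3.50 and 3.40 with Piezo1-cKO in lung, and 1.32 and 1.01 with WT against 0 and 0.0262 with Piezo1-cKO in PB, and a difference of -1.59. Per1, Cry1 and Nfil3 had -0.45, -0.36 and 0.25. After rescaling, 3 members were positive and 3 negative.

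For targets of p53, of 22 members tested, 2 had a positive and 9 a negative difference, with a median of -0.16. These were 9.09% and 40.9% of members, against 18.5% and 29.7% over all genes. Cdkn1a, the cell cycle inhibitor p21, had 387 and 389 FPKM with WT and 347 and 356 with Piezo1-cKO in lung, and 5.74 and 6.25 with WT against 1.17 and 1.25 with Piezo1-cKO in PB. Its effects were 0.14 in lung and 1.66 in PB, and its difference was -1.52 (SE 0.07, limma adjusted p = 7.13e-06). Pmaip1, which encodes the proapoptotic NOXA, and Trp53 had -0.84 and -0.60. The 2 positive members, named after their values were seen, were Dcxr with 1.60, the largest absolute difference of the list, and Ei24 with 0.59. For the cell cycle, of 17 members tested, 4 had a positive and 7 a negative difference, with a median of -0.21, with Cdk4 at 1.31, E2f2 at -0.58 and Cdk2 at -0.44. For BCL2 proteins and caspases, of 25 members tested, 4 had a positive and 6 a negative difference, with a median of -0.07, and besides the genes above Ripk3 and Bcl2a1d had -0.54 and -0.52. Casp6, named after its values were seen, had 0.84.

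For interferon-stimulated genes, of 52 members tested, 9 had a positive and 19 a negative difference, with a median of -0.13. These were 17.3% and 36.5% of members, against 18.5% and 29.7% over all genes. Ifit2, which binds foreign RNA, had 1.54 and 1.55 FPKM with WT and 2.38 and 2.64 with Piezo1-cKO in lung, and 6.13 and 6.44 with WT against 3.06 and 3.15 with Piezo1-cKO in PB, and a difference of -1.29 (SE 0.11, limma adjusted p = 1.06e-04). The guanylate-binding proteins Gbp3 and Gbp7 and the RNA helicase Dhx58 had -1.003, -0.81 and -0.84, and all 4 were lower in WT in lung and higher in WT in PB. For MHC class I presentation, of 25 members tested, 3 had a positive and 7 a negative difference, with a median of -0.08, and after H2-M3 came Canx, H2-T24 and H2-Q7 with -0.58, -0.52 and -0.51. For phagocytosis and pattern receptors, of 47 members tested, 11 had a positive (23.4%) and 15 a negative difference (31.9%), with a median of -0.05. After Tlr7, the members named by rule were the peptidoglycan sensor Nod1, Tlr6 and Treml4 with -0.83, -0.66 and -0.62. Pycard, named after its values were seen, had 0.96. For checkpoint and costimulatory molecules, of 19 members tested, 6 had a positive and 5 a negative difference, with a median of 0.11, with Cd80 at -0.87, Cd101 at -0.57 and Sirpa at -0.57 after Tnfsf9.

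Specific and gelatinase granule genes had more positive than negative calls, whereas all genes tested had 18.5% positive and 29.7% negative. For specific and gelatinase granules, of 31 members tested, 11 had a positive and 3 a negative difference, with a median of 0.12, or 35.5% and 9.68% of members. Ngp, a cathelicidin-related protein of specific granules, had 689.8 and 669.5 FPKM with WT and 858 and 868 with Piezo1-cKO in lung, and 1249 and 1257 with WT against 1992 and 2078 with Piezo1-cKO in PB. It was lower in WT in both tissues, and by more in PB, with a difference of 0.35 (SE 0.04, limma adjusted p = 2.83e-04). Fpr1, the receptor for formylated bacterial peptides, was higher in WT in lung and lower in WT in PB, with a difference of 0.52 (SE 0.04, limma adjusted p = 3.73e-05), while the integrin chain Itgam and the protease Mmp25 had -0.48 and -0.45. For primary granules, of 10 members tested, 2 had a positive and 0 a negative difference, with a median of -0.03, those called being Serpinb1a with 0.78 and Srgn with 0.23. For S100 proteins and alarmins, of 10 members tested, 4 had a positive and 2 a negative difference, with a median of 0.17. S100a9, S100a6, S100a11 and Hmgb2 had 0.34, 0.29, 0.24 and 0.25. The negative ones, named after their values were seen and at most 2.49 FPKM in any group mean, were S100a1 with -1.72 and S100a4 with -1.30; S100a1 had no reads in Piezo1-cKO PB, and its value depends on the pseudocount. For the NADPH oxidase and reactive oxygen, of 20 members tested, 7 had a positive and 3 a negative difference, with a median of 0.02, with Noxred1 at -1.43, Sod1 at 0.59, Vav3 at -0.43 and Prdx5 at 0.35. Genes of immature granulocytes (16 found, 8 tested) summed to 1133 to 1134 FPKM in WT lung and 1454 to 1469 in Piezo1-cKO lung. In PB the sums were 2065 to 2078 with WT and 3204 to 3342 with Piezo1-cKO. Ngp alone held 689.8 and 669.5 FPKM in WT lung and 1992 and 2078 in Piezo1-cKO PB, so the sums largely follow 1 gene. The share of immature cells was not tested. Of the 8 tested, 3 (Ngp and, named after their values were seen, Cebpe and Ltf) had a positive difference.

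Neutrophil identity genes themselves differed between tissues by small amounts. Of the 15, 7 had a positive and 4 a negative difference, with a median of 0.10 and no member past 1. Ly6g, the marker used in the sort, had 61.4 and 57.8 FPKM with WT and 53.7 and 50.6 with Piezo1-cKO in lung, and 93.6 and 101 with WT against 105 and 114 with Piezo1-cKO in PB. It was higher in WT in lung and lower in WT in PB, with a difference of 0.36 (SE 0.08, limma adjusted p = 0.00778). Clec4d, a C-type lectin, had 0.47, and Ptprc, which encodes CD45, -0.37. Summed FPKM of the 15 genes were 98553 to 101979 in WT lung, 76671 to 81002 in Piezo1-cKO lung, 139855 to 143573 in WT PB and 117849 to 132869 in Piezo1-cKO PB.

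Subunits of the large housekeeping complexes had differences of both signs. For cytosolic ribosomal proteins, of 81 members tested, 20 had a positive and 7 a negative difference, with a median of 0.20, or 24.7% and 8.64%, and their median length was 795 bases. Rps28, Rpl36a, Rpl38 and Rpl5 had -0.95, 0.88, 0.72 and 0.72. For mitochondrial ribosomal proteins, of 60 members tested, 15 had a positive and 7 a negative difference, with a median of -0.01, ranging from Mrpl13 at -1.25 to Mrps26 at 1.08 among the members named by rule, with Mrps12 at -0.98 and Mrpl42 at -0.96. For nuclear-encoded respiratory chain subunits, of 77 members tested, 15 had a positive and 14 a negative difference, with a median of 0.07, with Atp5g2 at 1.27 and Ndufs1 at -0.68. For proteasome subunits, of 45 members tested, 8 had a positive and 6 a negative difference, with a median of -0.02, with Psmc5 at 0.98 and Psmd3 at -0.78. For translation factors, of 42 members tested, 9 had a positive and 8 a negative difference, with a median of 0.01, with Eef1g at 0.85 and Eef1d at 0.70.

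The remaining lists are given by their counts. Of hypoxia and glycolysis genes, 8 of 36 were positive and 10 negative, with Arnt at -0.79 and Ero1l at 0.75. Of heat shock genes and chaperones, 8 of 34 were positive and 13 negative, with Hspa9 at -0.95 and Dnajb1 at -0.90. Hspe1, named after its values were seen, had the largest difference of that list, with 1.74. Myeloid transcription factors had 7 positive and 11 negative of 34, where Id2 was followed by Ikzf1 at -0.89. Cholesterol and lipid droplet genes had 6 and 10 of 24. Counts were 6 and 10 of 47 for lysosomes, 12 and 11 of 33 for autophagy, 9 and 5 of 26 for NRF2 targets, 4 and 10 of 34 for the unfolded protein response, 1 and 4 of 15 for MAPK phosphatases, 4 and 3 of 19 for glucocorticoid-induced genes and 5 and 4 of 28 for replication histones. None of these shares is read as particular to its list.

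**Figure D5:**
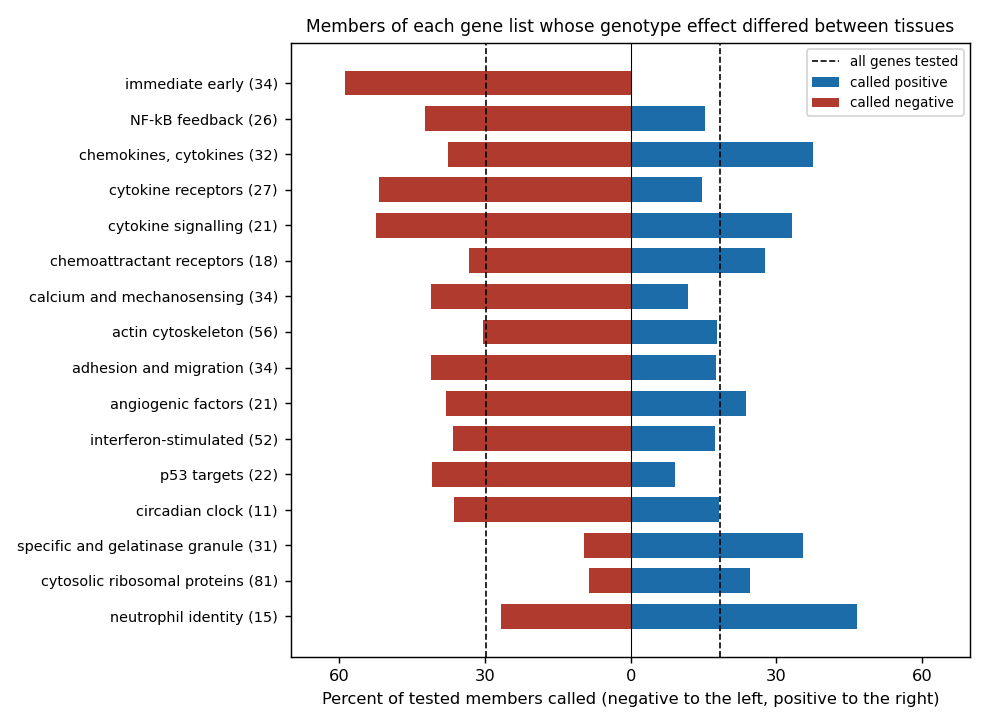
Percent of tested members called negative (to the left) and positive (to the right) in 16 gene lists, with the number tested in parentheses and dashed lines at the 29.7% and 18.5% of all genes tested. Immediate early genes have 58.8% negative and no positive calls, whereas granule and cytosolic ribosomal genes have fewer negative calls than all genes.

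Lung and PB neutrophils of WT mice were also sequenced separately, 3 libraries each, and these libraries did not enter the tests above. Of 6927 genes tested in both data sets, 553 were higher in lung past a log2 fold change of 1 (7.98%) and 1387 lower (20.0%). This excess of lower genes turned after rescaling, with 932 higher and 448 lower, and in edgeR with TMM, with 1067 and 863, so the shares below hold for the deposited scaling. Of the 128 genes with a positive difference above 1 that were tested there, 19 were higher (14.8%) and 22 lower in lung (17.2%). Of the 261 with a negative difference below -1, 19 were higher (7.28%) and 56 lower in lung (21.5%). The median lung minus PB difference in those libraries was -0.48 for the positive and -0.52 for the negative genes, beside -0.54 for all. These shares are set side by side with no test.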

How the data were processed

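Neutrophil RNA-seq tables were analysed as deposited. Per the labels and the study's methods, the authors trimmed reads with fastp, aligned them with HISAT2 to mm10, counted with HTSeq and deposited FPKM per gene and library; the same tables hold a normalised signal (the mean of counts over size factors per group, as the authors deposited it), which served to recover whole reads from the FPKM (100% of values within 0.02 reads). Tool versions were not given in the sources used here. The tables also hold the authors' fold changes, p-values and q-values, which were not used, and the whole-lung table of another experiment was not analysed here.

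Groups came from the labels. Genes with at least 1 FPKM in 2 libraries were tested on log2(FPKM + 1), so fold changes of low genes are understated. All 8 libraries entered 1 fit of limma 3.58.1 (trend and robust, R 4.3.3) with 1 mean per group, contrasts for lung, PB and their difference, and Benjamini-Hochberg adjustment over all genes; the threshold was 0.05. The separate WT libraries had a fit of their own (1 FPKM in 3 libraries). Scripts were tested on simulated data. Gene lengths were those implied by FPKM and recovered reads, whole within 0.01 bases for 95.4% of genes. Symbols matched 21723 RefSeq genes with coordinates on GRCm38.

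Named genes were the 10 largest differences of each sign above 1 with a group mean of at least 5 FPKM, the 5 largest of each sign with 5 FPKM in all 4 groups, the 4 largest of each sign with opposite effects past 0.5 in both tissues, up to 4 called members of each list with 5 FPKM in a group, and genes the study names. Members and lists were chosen with earlier results of these data known. Alternatives were edgeR 4.0.16 (TMM, RLE) and DESeq2 1.42.0 on recovered reads, a pseudocount of 0.1, no filter or a filter in all libraries, rescaling to a common median ratio, replicate blocks, leaving out each library and, chosen after seeing the data, removing the trend with gene length. Some members of the lists are not reported here.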

Additional observations from a re-analysis of the deposited data

Results flagged for a closer look

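The interaction term itself showed differences between the tissues, at 3647 genes in limma and at 518 of them above an absolute difference of 1. At the ends of the range stood Hbb-bs with a difference of 6.57 and Pibf1 with -2.33, both tested by the same term. Groups of 2 libraries are too small for a check of single libraries against their group.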

How the results depend on the processing

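The count of genes called (3647) stayed within 1.5 times under every alternative except no filter, which tests more genes and called 5509. Leaving out 1 library gave 2757 to 3341 genes, 475 to 532 above 1, 63 to 76 for lung, 221 to 269 for PB, and 452 to 597 higher and 1280 to 1498 lower genes in the separate WT libraries. Counts above 1 moved with the scale: the interaction gave 1142 genes in DESeq2, 1271 in edgeR with RLE, 1272 with TMM, 1211 with a pseudocount of 0.1, and 186 where all libraries had to pass the filter. In the same order the lung effect gave 618, 662, 660, 599 and 26 genes and the PB effect 796, 850, 850, 773 and 56, with 173 after rescaling. In the separate WT libraries, 932 genes were higher and 448 lower in lung after rescaling, and 1067 and 863 in edgeR with TMM. Cxcl1 reversed, to -3.96 in DESeq2, -4.47 and -4.50 in edgeR with RLE and TMM, and -1.79 with a pseudocount of 0.1; it has no reads in Piezo1-cKO PB. Depth limits such genes most.

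The replicate numbers are shared by groups, and deviations of same-numbered libraries correlated at -0.02 to 0.07. The highest values were between the tissues within a genotype, with 0.07 for Piezo1-cKO and 0.04 for WT. With 2 libraries per group, these values cannot show whether same-numbered lung and PB libraries came from 1 mouse. With the replicate block, 3661 genes were called and 518 stood above 1. With a replicate block within each genotype, the counts were 3737 and 521.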
